A study of Mus musculus with 15 samples.

Results

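The arrays described here set LPS-activated RAW264.7 cells that received 13-HDHEA against LPS-activated cells that received vehicle. They were chosen by their sample titles, and are 6 of the 15 arrays of the study, 3 in each group. RAW264.7 is an established mouse macrophage line, so every array carries RNA of 1 line and none of primary cells. In all 6 cultures the medium held 0.1% ethanol, cells stood for 30 min with 13-HDHEA at 5.0 µM, or with ethanol alone, LPS was then added at 1.0 µg/mL, and RNA was taken at 24 h. Of the other arrays, 3 had vehicle and no LPS, 3 had 5.0 µM 16-HDHEA with LPS, and 3 had 2.5 µM of each isomer with LPS (the combined treatment). Each replicate number carries its own experiment identifier in the labels and is called experiment 1, 2 or 3 below.

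Docosahexaenoyl ethanolamide is the ethanolamine conjugate of an omega-3 fatty acid and belongs to the same lipid class as the endocannabinoid anandamide. Cyclooxygenase-2 and lipoxygenases can oxygenate such lipids, and 13-HDHEA, a 13-hydroxydocosahexaenoyl ethanolamide, is a hydroxylated member of this group. LPS, from the outer membrane of Gram-negative bacteria, is sensed by Tlr4. One branch of its signalling, through NF-kB, switches on cytokine genes, and another leads to interferon beta, which in turn drives interferon-stimulated genes.

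Each value is the log2 expression of a probe set, and 15468 genes were tested. The 3 arrays a group limit the precision: the median standard error of a difference was 0.126 on the log2 scale. Levels of all probe sets on the 6 arrays correlated between 0.992 and 0.995. Array medians in experiments 1, 2 and 3 were 3.629, 3.640 and 3.622 with vehicle and 3.685, 3.685 and 3.643 with 13-HDHEA. The 40th percentile of an array, used here as a floor for dim probe sets, averaged 3.17 with vehicle and 3.21 with 13-HDHEA. By both measures all 3 arrays with 13-HDHEA lay above all 3 with vehicle. The bearing of this shift on differences of dim genes was not tested. All 23 macrophage identity genes that had a probe set were above this floor on all 6 arrays, and 21 were above the 70th percentile, among them Adgre1, Cd68, Csf1r, Itgam and Spi1. No marker of fibroblasts (0 of 11), lymphocytes (0 of 10), neutrophils (0 of 10) or epithelial and endothelial cells (0 of 12) was above the 70th percentile on all 6. Above the floor on all 6 were 5 of 11 fibroblast, 1 of 10 lymphocyte, 3 of 10 neutrophil and 9 of 12 epithelial and endothelial markers.

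13-HDHEA changed 1 gene past the threshold in these cells. Mnd1, whose product joins Psmc3ip in a complex that acts in the pairing of homologous DNA, fell. In limma with Benjamini-Hochberg adjustment it was the only gene of 15468 called, a share of 0.00646%. At an unadjusted p under 0.05 there were 660 genes (4.27% of those tested), 301 higher (1.95%) and 359 lower (2.32%) with 13-HDHEA. With experiment as a block in the fit Mnd1 was again the 1 gene called (adjusted p = 0.00471 in limma), and 963 genes (6.23%) had an unadjusted p under 0.05. No other gene differed 2-fold in the mean of the 3 experiments, and among the 8158 genes above the 70th percentile on all 6 arrays the differences ran from -0.57 to 0.87.

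**Figure D1:**
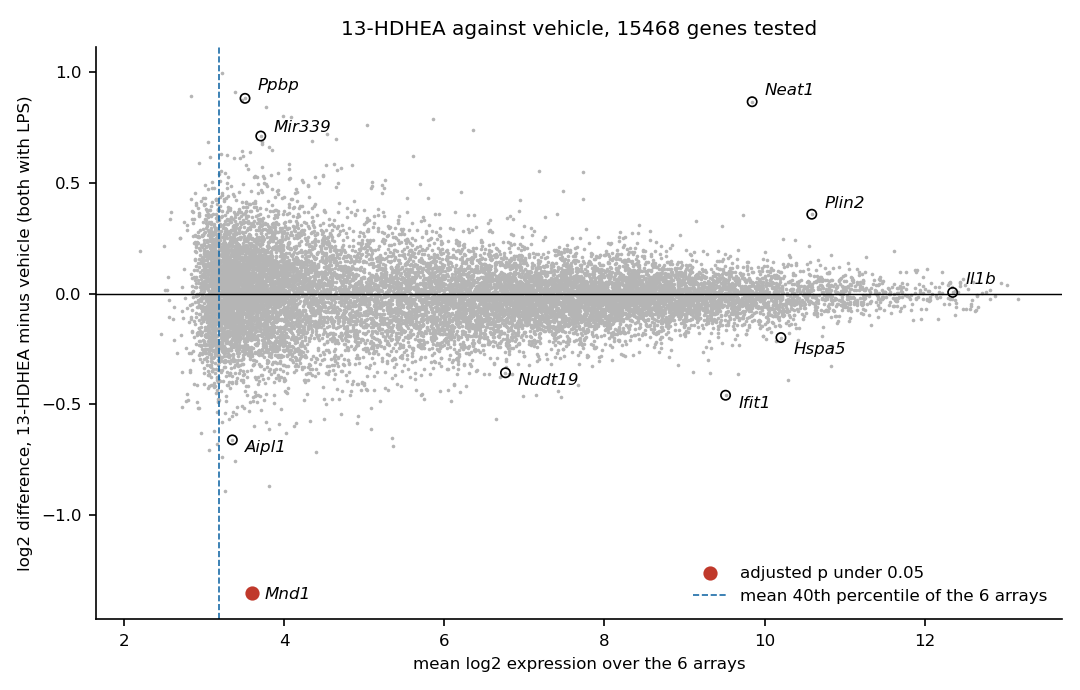
Each point is 1 of 15468 genes: the horizontal axis gives its mean log2 expression over the 6 LPS arrays, the vertical axis its log2 difference, 13-HDHEA minus vehicle. Mnd1, in red at -1.35, is the gene called; circled genes are described in the text, and the dashed line is the mean 40th percentile of the arrays, around which the points spread most.

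Mnd1 (Entrez gene 76915, probe set 17406323) read 4.19, 4.22 and 4.42 on the vehicle arrays of experiments 1, 2 and 3. With 13-HDHEA it read 3.13, 2.79 and 2.85. All 3 vehicle arrays lay above all 3 arrays with 13-HDHEA, and the groups were 1 log2 unit or more apart in each experiment, at -1.06, -1.43 and -1.57. The mean difference was -1.35 (95% interval -1.63 to -1.08), with an adjusted p of 0.00091 in limma. With 13-HDHEA the level was below the floor on all 3 arrays, so the change is given as at least 2.10-fold, from the floor to the vehicle mean. Since the RNA came from whole cultures, fewer cells with the transcript and less of it per cell cannot be told apart. The call was lost in a fit that held only these 6 arrays, where the adjusted p was 0.105.

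The other arrays place this value. Mnd1 averaged 5.35 ± 0.167 (SD, n = 3) without LPS, 4.28 ± 0.128 with LPS and vehicle, 4.03 ± 0.131 with 16-HDHEA and 4.06 ± 0.188 with the combined treatment. The order of the group means was thus no LPS, vehicle, combined, 16-HDHEA and 13-HDHEA, and the arrays with the combined treatment overlapped both those with vehicle and those with 16-HDHEA, while the last 2 groups lay apart. Only the 13-HDHEA group lay below the floor. The combined treatment holds 2.5 µM 13-HDHEA, a lower dose than the 5.0 µM given alone, so the doses are not matched. Both the 16-HDHEA and combined groups are set against the same vehicle arrays.

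**Figure D2:**
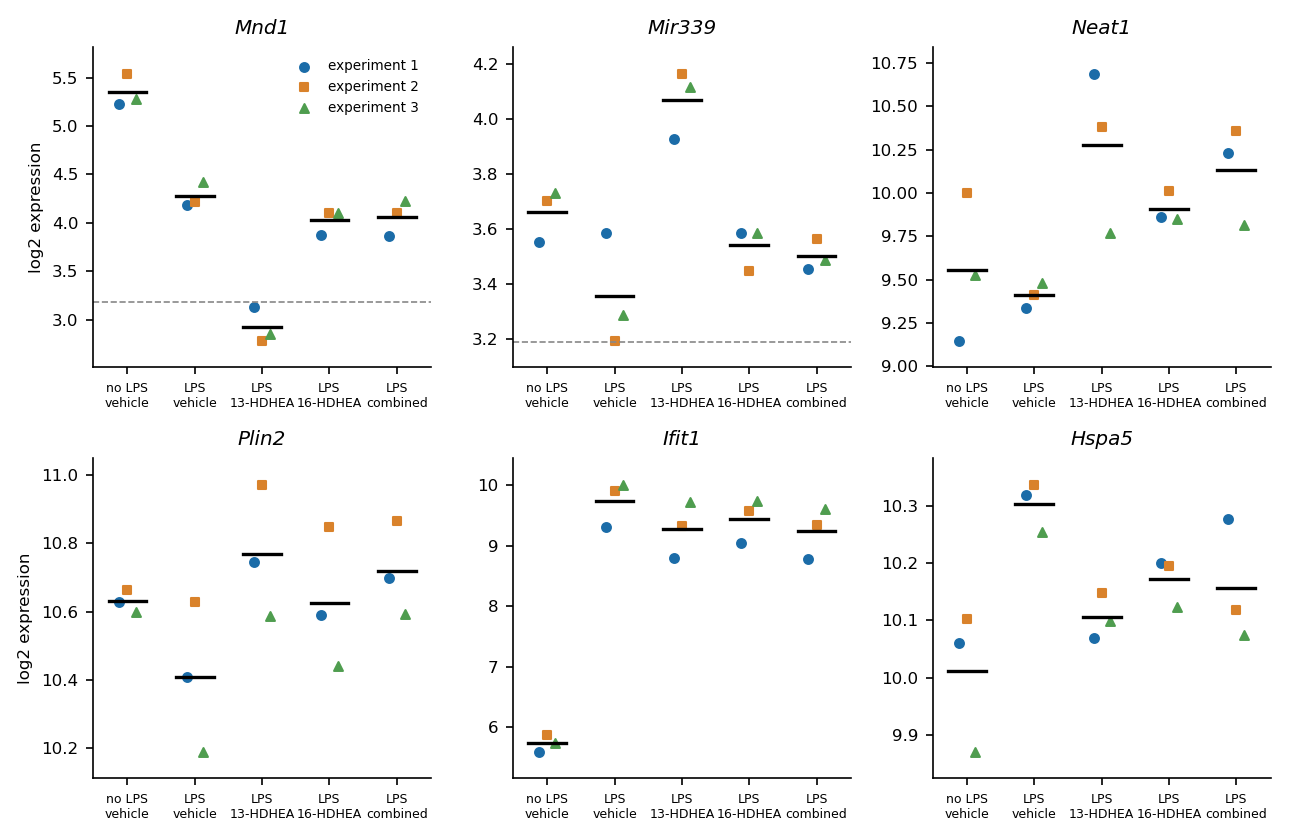
Log2 expression of 6 genes on all 15 arrays by group, with 1 symbol and colour per experiment, bars for group means of 3 arrays, and a dashed line at the mean 40th percentile of the 6 LPS arrays with vehicle or 13-HDHEA where it falls in range. Mnd1 with 13-HDHEA sits at 2.92, under the line, while the other LPS groups lie at 4.03 to 4.28.

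The homologous recombination and meiosis list holds Mnd1 and its partners. Of 24 members tested, Mnd1 fell and 23 did not pass. 16 of the 24 were lower in the mean, where 53.7% of all genes tested were lower, and the median was -0.06 against -0.01 for all genes (-0.11 without vehicle replicate 1, -0.03 without 13-HDHEA replicate 1 or vehicle replicate 2). Lower in each experiment were 9 of the 24 (14.8% of all genes), and 5 were lower without overlap in the same direction each time (4.6% of all genes). Both counts include Mnd1, and no member was higher by either measure. Psmc3ip, the obligate partner of Mnd1, differed by 0.07. Blm, a helicase that resolves recombination intermediates, read 7.67, 7.74 and 7.60 with vehicle and 7.53, 7.51 and 7.32 with 13-HDHEA. Its groups did not overlap, but the difference of -0.21 (-0.44 to 0.01) did not pass. Palb2, which links Brca1 to Brca2, differed by -0.27 and Sycp1, a protein of the synaptonemal complex, by 0.48, and both had overlapping groups. None of 35 cell cycle and DNA replication genes passed, and a link between them and Mnd1 was not tested. Their mean level per array was 7.75, 8.01 and 8.04 with vehicle against 7.75, 8.01 and 8.02 with 13-HDHEA, and their median difference was -0.01. That median had no stable sign: it was -0.12 without vehicle replicate 1 and 0.07 without 13-HDHEA replicate 1.

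The gene with the smallest p after Mnd1 was Mir339, which encodes a microRNA. The rule for named genes leaves out microRNA symbols, so it was chosen after its values were seen. MicroRNAs pair with target transcripts mainly through their seed, bases 2 to 8 of the mature strand. Its mature strands from RefSeq (GRCm38.p6, minus strand of chr5:139369708-139369730 for the 5p arm and chr5:139369673-139369695 for the 3p arm) are shown because the 2 arms have different seeds, given in capitals.
mmu-miR-339-5p: uCCCUGUCcuccaggagcucacg
mmu-miR-339-3p: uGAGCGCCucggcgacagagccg
The probe set is listed for the gene, and gives no value for either arm. It read 3.59, 3.19 and 3.28 with vehicle and 3.92, 4.16 and 4.11 with 13-HDHEA. The groups did not overlap, and the gene was higher in each experiment. The difference of 0.71 (0.49 to 0.94) did not pass, with an adjusted p of 0.0785 in limma. Mir339 passed when vehicle replicate 1, the highest of the vehicle arrays, was left out (adjusted p = 0.0118 in limma). Its level was 3.66 without LPS, 3.54 with 16-HDHEA and 3.50 with the combined treatment.

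In 1227 genes (7.93% of those tested) the 3 arrays with 13-HDHEA did not overlap the 3 with vehicle and each experiment went the same way: 515 were higher (3.33%) and 712 lower (4.6%). The 10 with the smallest p in each direction, with predicted genes and some kinds of RNA gene left out by symbol (long noncoding RNAs such as Neat1 stay in), were mostly dim. Of the 10 lower genes, 8 had a 13-HDHEA level below the floor, and of the 10 higher genes, 2 had a vehicle level below it. Mnd1 apart, none of the 20 passed.

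Among the higher genes, Ppbp, a platelet chemokine precursor, was dim. It read 3.41, 3.08 and 2.72 with vehicle and 3.62, 4.21 and 4.04 with 13-HDHEA. The groups were close in experiment 1 and far apart in experiment 3, and the difference of 0.88 (0.48 to 1.29) had an adjusted p of 0.595 in limma. The vehicle level lay below the floor, so its size is given as at least 1.72-fold. Zfp458, a zinc finger gene, was tighter. It read 4.20, 4.26 and 4.19 with vehicle against 4.66, 4.85 and 4.74 with 13-HDHEA, a difference of 0.53 (0.30 to 0.77) with the same adjusted p of 0.595 in limma. The others were Fbxo43, an inhibitor of the anaphase-promoting complex (vehicle level below the floor, at least 1.17-fold), Fam166a (0.68), Fam163b (0.62), Spx, the hormone spexin (0.52), Ltc4s (0.49), the receptor tyrosine phosphatase gene Ptprf (0.36), the fibronectin gene Fn1 (0.32) and the nuclear RNA Neat1 (0.87).

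Among the lower genes, Aipl1, a co-chaperone known from photoreceptors, came closest after Mnd1. It read 3.74, 3.63 and 3.69 with vehicle and 3.13, 2.95 and 3.00 with 13-HDHEA. The groups were apart in each experiment, the 13-HDHEA level lay below the floor, and the difference of -0.66 (-0.89 to -0.43) had an adjusted p of 0.116 in limma. Measured from the floor, its level was lower by at least 0.48 on the log2 scale. The remaining lower genes, with differences whose size was not resolved where the level lay below the floor, were the deubiquitinase gene Otud7a (-0.74), the zinc finger gene Zfp12 (-0.59), the tight junction gene Cldn11 (-0.57), the blood cell gene Hemgn (-0.54), Ccdc150 (-0.49), the plasminogen gene Plg (-0.48), the protocadherin gene Pcdhga10 (-0.38) and the mast cell protease gene Prss34 (-0.29). Zfp12 and Cldn11 were above the floor on all 6 arrays.

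**Figure D3:**
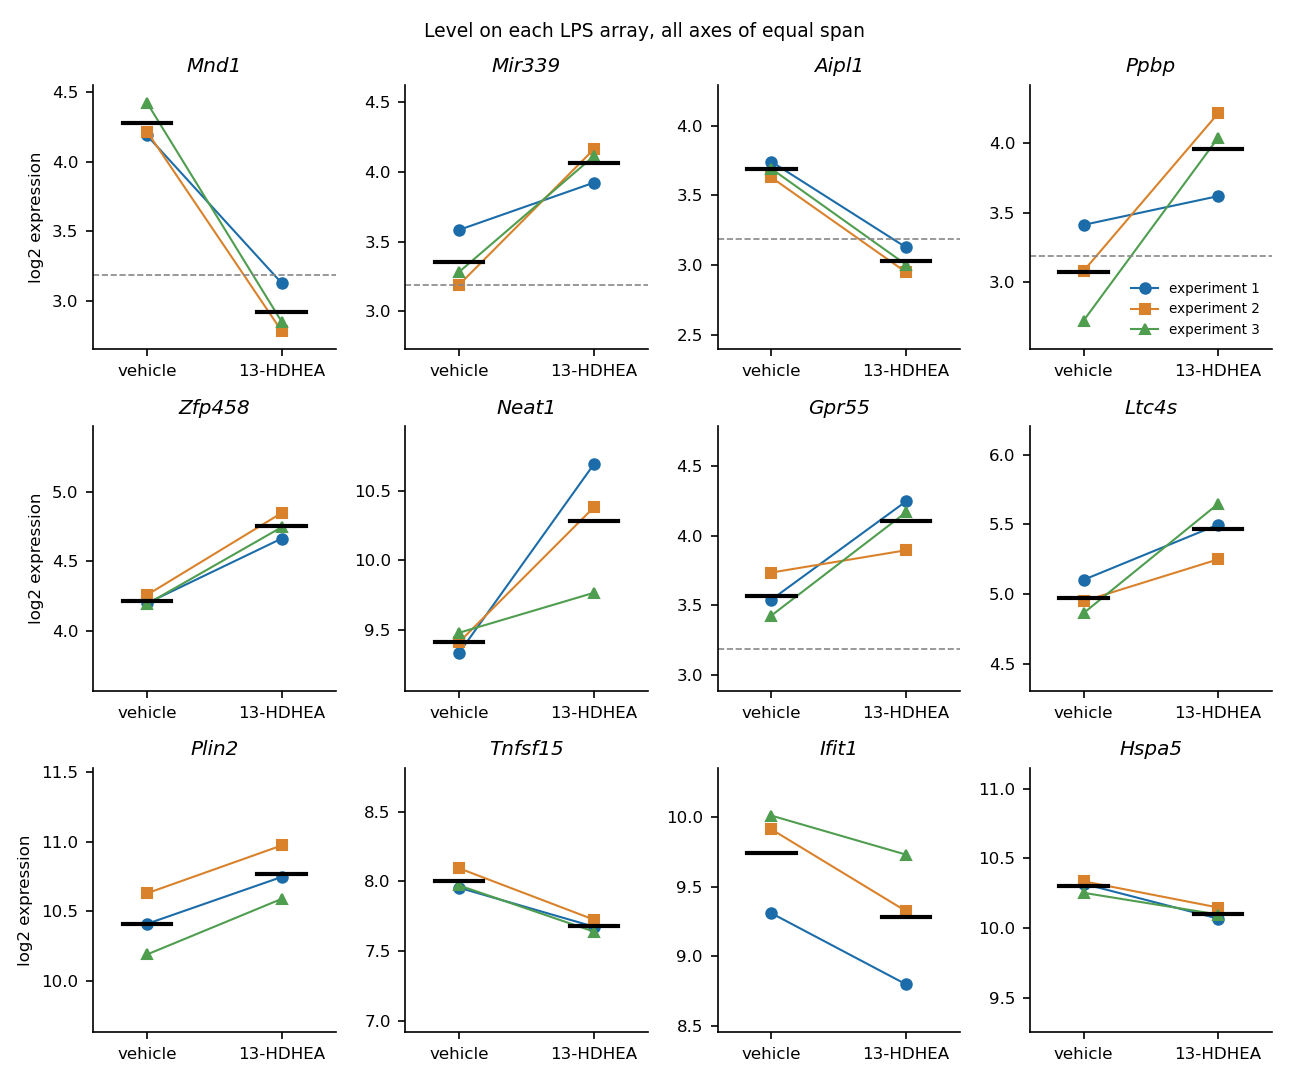
Log2 expression of 12 genes on the 6 LPS arrays, vehicle at left and 13-HDHEA at right, with a line per experiment, thick bars for group means and a dashed line at the mean 40th percentile where it falls in range. Every vertical axis spans the same number of log2 units, so slopes can be compared; Mnd1 has the steepest mean slope, while Plin2 shows 3 nearly parallel lines.

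Because dim probe sets carry little information on size, the 8158 genes above the 70th percentile on all 6 arrays were also described by themselves, a choice made after the data were seen. None passed. At an unadjusted p under 0.05 there were 180 of them (2.21%), 48 higher and 132 lower. Groups lay apart with the same sign each time in 594 of them (7.28%). Neat1, the long noncoding RNA that scaffolds nuclear paraspeckles, had one of the largest differences. It read 9.34, 9.41 and 9.48 with vehicle and 10.69, 10.38 and 9.77 with 13-HDHEA. All 3 treated arrays were above all 3 vehicle arrays, but the size varied widely, at 1.35, 0.97 and 0.29 in experiments 1, 2 and 3. The difference of 0.87 (0.38 to 1.36) did not pass, with an adjusted p of 0.953 in limma. Neat1 averaged 9.91 with 16-HDHEA and 10.14 with the combined treatment, which share the vehicle arrays, and 9.56 without LPS.

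The other bright genes with the smallest p had smaller differences. Higher were Firre, a nuclear long noncoding RNA (0.37), Ifitm2, an interferon-induced membrane protein that restricts viral entry (0.31), the small GTPase gene Rabl2 (0.28) and Klhl5 (0.24). Lower were Nudt19, a peroxisomal coenzyme A hydrolase (-0.36), Lysmd3 (-0.32), the ribosome assembly gene Rrs1 (-0.30), Creb3l2, a membrane-bound transcription factor of the endoplasmic reticulum (-0.29), and Mtx2, a protein of mitochondrial import (-0.21). Rrs1 read 8.27, 8.24 and 8.23 with vehicle and 7.77, 8.05 and 8.02 with 13-HDHEA, with no overlap. Its adjusted p was 0.974 in limma.

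The inflammatory genes most often read in LPS-activated macrophages did not pass. Tnf read 12.65, 12.49 and 12.41 with vehicle and 12.52, 12.42 and 12.40 with 13-HDHEA, Il1b 12.39, 12.30 and 12.35 against 12.36, 12.28 and 12.41. Both were near the top of the scale and overlapped between groups, with differences of -0.07 (-0.25 to 0.12) and 0.01 (-0.21 to 0.22). Il6 was 10.88, 10.78 and 10.79 with vehicle and 10.67, 10.47 and 10.74 with 13-HDHEA. Its groups did not overlap, and the difference was -0.19 (-0.47 to 0.09). Nos2, the inducible nitric oxide synthase, had the widest interval of the 10 genes named in every case, at -0.21 (-0.66 to 0.23). Ptgs2, which encodes cyclooxygenase-2, differed by 0.05 (-0.28 to 0.37), the chemokine gene Ccl2 by 0.04 (-0.13 to 0.22), the interleukin-1 antagonist gene Il1rn by -0.14 (-0.54 to 0.27) and Hmox1, heme oxygenase, by 0.04 (-0.24 to 0.32). Il10, a cytokine that restrains macrophages, was dim in both groups and differed by -0.20 (-0.47 to 0.07). The adjusted p of each was 1 in limma.

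As a list, 19 of 23 pro-inflammatory cytokine genes were lower with 13-HDHEA, and none passed. The median was -0.10 against -0.01 for all genes tested. It was -0.16 without 13-HDHEA replicate 1 or 3 and -0.08 without 13-HDHEA replicate 2. Of the 23, 10 were lower in each experiment, where 14.8% of all genes were. Tnfsf15, a ligand of the TNF family, had the smallest p. It read 7.95, 8.09 and 7.97 with vehicle and 7.67, 7.73 and 7.64 with 13-HDHEA. The groups did not overlap, and the difference was -0.33 (-0.56 to -0.09). Csf1, the macrophage growth factor, read 9.48, 9.73 and 9.27 with vehicle and 9.14, 9.23 and 9.03 with 13-HDHEA, a difference of -0.36 (-0.80 to 0.08), again without overlap. Il12a, a subunit of interleukin-12, and Clcf1, a cytokine of the interleukin-6 family, differed by -0.31 and -0.22 with overlapping groups. The adjusted p of these 4 genes was 1 in limma. Among chemokine genes 14 of 20 were lower (median -0.02), among NF-kB subunits and targets 10 of 19 (median -0.01), and among LPS receptor and adaptor genes 9 of 15 (median -0.01). The last 2 medians turned positive when each array was centred on its median. Of the chemokines, Cxcl10, which attracts T cells, differed by -0.33, at -0.49, -0.43 and -0.06 in experiments 1, 2 and 3. Cxcl3, a neutrophil attractant, differed by 0.35, but unevenly, at -0.11, 0.97 and 0.19. Both had overlapping groups.

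Genes that restrain the response went both ways. Of 24 anti-inflammatory and feedback genes, 14 were higher and 10 lower, with a median of 0.03 and none called. Bcl3, a nuclear IkB protein, read 8.06, 8.06 and 8.08 with vehicle and 8.28, 8.18 and 8.33 with 13-HDHEA. The vehicle arrays lay within 0.1 of each other and the groups did not overlap, but the difference of 0.20 (0.01 to 0.38) did not pass. Nitric oxide and host defence genes were lower in 11 of 20 cases, antigen presentation genes in 11 of 18 and inflammasome genes in 11 of 20, with medians from -0.04 to -0.01. The first and last of these medians turned positive when each array was centred on its median.

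Interferon-stimulated genes were the list with the lowest median. Of 37 tested, 35 were lower with 13-HDHEA (53.7% of all genes were), 24 were lower in each experiment (14.8% of all genes), and none passed. The median was -0.15, and it was -0.08, -0.24 and -0.12 in experiments 1, 2 and 3. Left out 1 at a time, the 6 arrays gave medians from -0.20 (without vehicle replicate 1) to -0.08 (without vehicle replicate 2), and without 13-HDHEA replicate 1 it was -0.09. Groups did not overlap, with the same sign in each experiment, in 4 of the 37, all lower, where 4.6% of all genes were so lower. The mean level of the list on each array was 8.63, 8.91 and 8.84 with vehicle and 8.52, 8.66 and 8.72 with 13-HDHEA. The arrays of the groups overlapped, since experiment 1 was low in both, but within each experiment the 13-HDHEA array was the lower. Of the 37, 36 rose with LPS in the 16-HDHEA and combined groups against no LPS, where 14.9% of all genes did. Their transcripts share inducers and are not independent of each other.

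Many promoters of this family carry the interferon-stimulated response element. Its letters GAAANNGAAA were searched on both strands of the 250 bases before the start site in RefSeq's GRCm38.p6 promoters. They were in 2.98% of all 32851 promoters, and in at least 1 promoter of 936 of 27025 genes (3.46%). Of the 27 list members with a promoter entry, 12 held them. The 12 include the only 2 list members that were higher with 13-HDHEA, Oas3 (0.03) and Trim30a (0.04), and the rest of the 12 were lower. Cmpk2 (-0.39) and Ifit2 (-0.36), both lower than Rsad2 (-0.35), are not among them. Only 27 of the 37 list members had a promoter entry to search, so absence from the 12 need not mean that a promoter lacks the letters. The promoters of 2 of the 12 are shown because these genes were also among the lowest of the list. They are Ifit1 at chr19:34640639-34640888 (plus strand) and Rsad2 at chr12:26456453-26456702 (minus strand). Matches are in capitals, as the reverse complement, and the sequences run 5′ to 3′ toward the start site.
Ifit1: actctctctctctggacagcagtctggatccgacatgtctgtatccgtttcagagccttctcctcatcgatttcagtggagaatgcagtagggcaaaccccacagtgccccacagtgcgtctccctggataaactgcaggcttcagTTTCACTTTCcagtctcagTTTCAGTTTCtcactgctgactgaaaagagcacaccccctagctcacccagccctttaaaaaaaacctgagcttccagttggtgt
Rsad2: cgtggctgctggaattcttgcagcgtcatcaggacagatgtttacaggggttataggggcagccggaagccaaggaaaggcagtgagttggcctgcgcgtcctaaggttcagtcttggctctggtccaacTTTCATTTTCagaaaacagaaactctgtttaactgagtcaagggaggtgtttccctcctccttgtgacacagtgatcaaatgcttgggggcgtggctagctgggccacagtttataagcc
Ifit1 has 2 matches, which begin 104 and 85 bases before the start site, and Rsad2 has 1, at 120 bases. A match describes these letters and shows no binding.

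Ifit1, which binds viral RNA that lacks a host cap, read 9.31, 9.91 and 10.01 with vehicle and 8.80, 9.32 and 9.73 with 13-HDHEA. It was lower in each experiment, but the groups overlapped, and the difference of -0.46 (-1.03 to 0.12) did not pass. Rsad2, the antiviral enzyme viperin, was added after its values were seen and differed by -0.35 (adjusted p of 1 in limma). Ifit2, of the same family as Ifit1, read 6.28, 6.70 and 6.48 with vehicle and 5.82, 6.34 and 6.22 with 13-HDHEA, a difference of -0.36 (-0.71 to -0.01). It was lower in each experiment, with overlap. Oasl2, of the oligoadenylate synthetase family, read 8.99, 8.98 and 8.92 with vehicle and 8.69, 8.57 and 8.85 with 13-HDHEA, without overlap, and differed by -0.26 (-0.54 to 0.03). Samd9l, an antiviral factor, differed by -0.24. The regulators of this program differed less: of 21 interferon receptor, IRF and STAT genes, 14 were lower, the median was -0.03, and the range was -0.11 to 0.13.

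**Figure D4:**
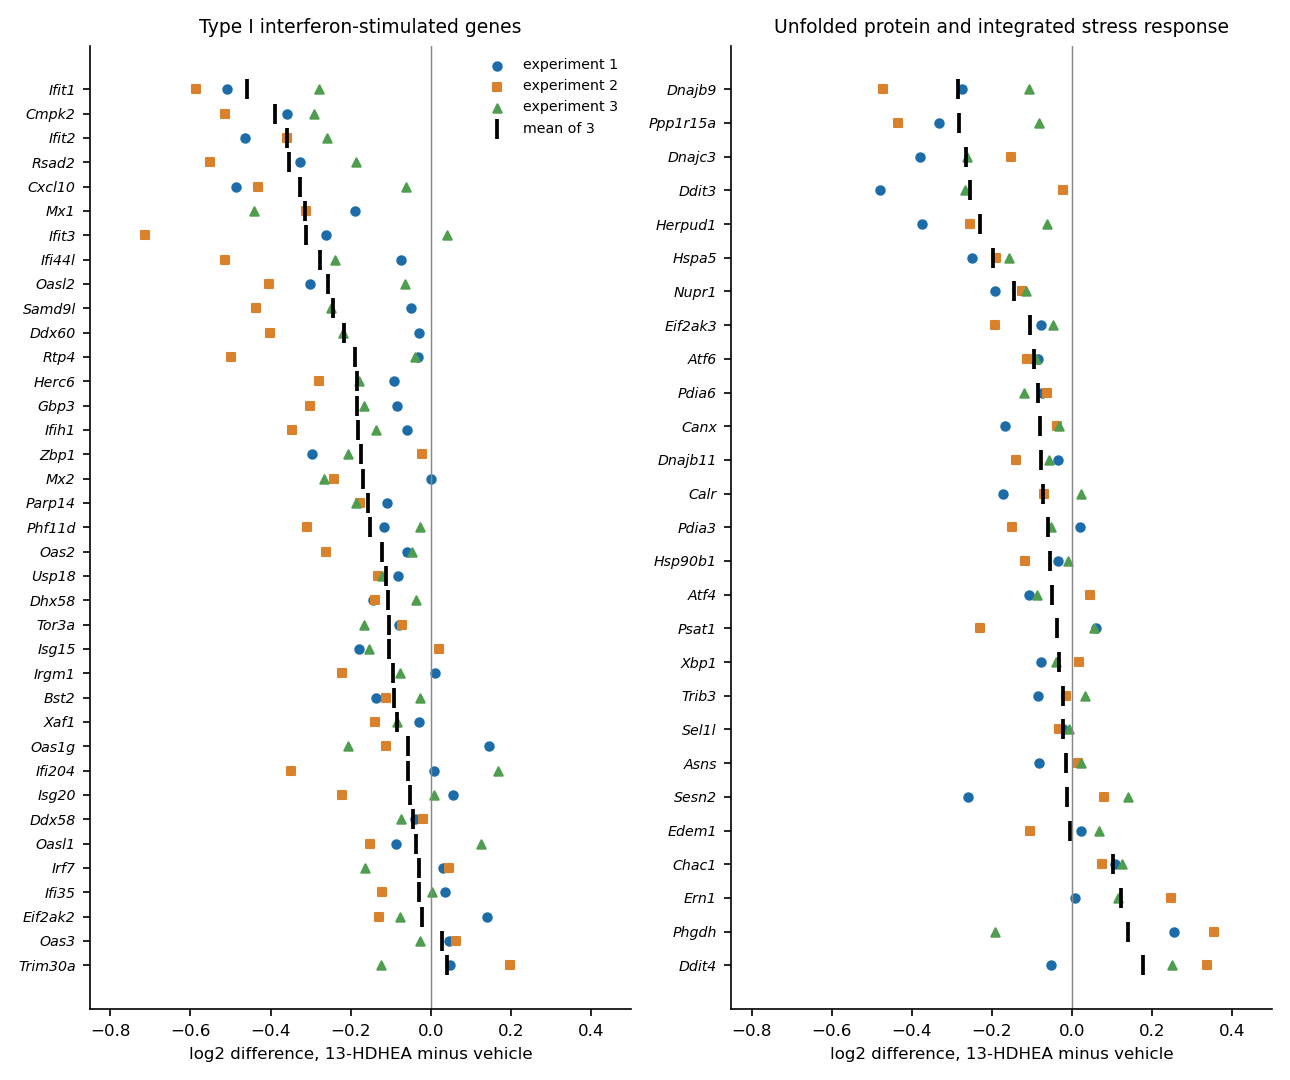
Log2 differences, 13-HDHEA minus vehicle, of each interferon-stimulated gene (left, 37 genes) and each unfolded protein and integrated stress response gene (right, 27 genes), with 1 symbol per experiment and a bar at the mean of the 3. Most points lie left of 0 in both panels, 35 of 37 and 23 of 27 by the mean, and the experiments differ in size, with experiment 2 lowest for many interferon-stimulated genes.

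The unfolded protein response restores folding capacity in the endoplasmic reticulum, and its sensors include Atf6, Ern1 and Eif2ak3. Of 27 tested genes of this and the integrated stress response, 23 were lower with 13-HDHEA (53.7% of all genes were), 14 of them in each experiment (14.8% of all genes), and none passed. The median was -0.06, at -0.08, -0.07 and -0.05 in the 3 experiments, and 5 of 27 were lower without overlap in the same direction each time, where 4.6% of all genes were. Hspa5, the chaperone BiP, read 10.32, 10.34 and 10.25 with vehicle and 10.07, 10.15 and 10.10 with 13-HDHEA. The groups lay close together but apart, and the difference was -0.20 (-0.37 to -0.02). Dnajb9, a co-chaperone of Hspa5, read 8.94, 9.11 and 8.79 with vehicle and 8.66, 8.64 and 8.68 with 13-HDHEA, a difference of -0.28 (-0.54 to -0.03), also without overlap. Herpud1, which serves the degradation of misfolded proteins, differed by -0.23 and Dnajc3, which restrains translation control kinases, by -0.26. The adjusted p of these 4 genes was 1 in limma. The sensors differed by -0.10 (Atf6), 0.12 (Ern1) and -0.10 (Eif2ak3).

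The endoplasmic reticulum stress element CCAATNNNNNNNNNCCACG, searched in the same way, was in 0.113% of the 32851 promoters and in 35 of 27025 genes (0.13%). It was found in 6 of the 26 list members with a promoter entry: Calr, Canx, Dnajc3, Hsp90b1, Hspa5 and Pdia6. The promoters of Hspa5 (chr2:34771840-34772089, plus strand) and Dnajc3 (chr14:118937682-118937931, plus strand) are shown because these 2 genes hold the element and are among the named genes of the list, with the match in capitals.
Hspa5: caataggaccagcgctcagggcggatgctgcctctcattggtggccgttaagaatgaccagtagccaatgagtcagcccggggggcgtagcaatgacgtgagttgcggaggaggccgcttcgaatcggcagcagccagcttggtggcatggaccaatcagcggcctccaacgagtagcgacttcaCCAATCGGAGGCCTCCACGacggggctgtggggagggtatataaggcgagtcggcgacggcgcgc
Dnajc3: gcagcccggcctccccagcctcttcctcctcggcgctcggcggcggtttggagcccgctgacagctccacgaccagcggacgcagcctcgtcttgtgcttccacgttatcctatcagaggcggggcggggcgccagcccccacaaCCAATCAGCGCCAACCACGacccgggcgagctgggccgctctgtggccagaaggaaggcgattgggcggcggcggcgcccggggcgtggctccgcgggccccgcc
The matches begin 65 bases before the start site of Hspa5 and 105 bases before that of Dnajc3. The 6 genes with the element differed by -0.07 (Calr), -0.08 (Canx), -0.26 (Dnajc3), -0.05 (Hsp90b1), -0.20 (Hspa5) and -0.09 (Pdia6).

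Genes that make, bind or respond to lipid mediators were examined because 13-HDHEA is itself a lipid of this kind. None passed. Of 22 N-acyl ethanolamine and endocannabinoid genes, 11 were higher and 11 lower. Gpr55, a receptor for lysophosphatidylinositol that also responds to some cannabinoids, read 3.54, 3.74 and 3.43 with vehicle and 4.25, 3.90 and 4.17 with 13-HDHEA. The groups did not overlap although the level was dim, and the difference of 0.54 (0.22 to 0.85) had an adjusted p of 0.953 in limma. Fabp3, a fatty acid binding protein, differed by 0.36 and Naaa, the acid amidase that cleaves N-acyl ethanolamines, by -0.27. The median of this list was near 0, with no stable sign. The cannabinoid receptor gene Cnr2 differed by -0.03 (-0.27 to 0.21), and Faah, the main hydrolase of anandamide, by 0.17.

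Of 12 fatty acid and lipid mediator receptors, 9 were lower (53.7% of all genes were), 3 of them in each experiment (14.8% of all genes), and 2 without overlap in the same direction each time (4.6% of all genes). The median of -0.09 was the third lowest of the 35 lists, at -0.02, -0.08 and -0.02 in the 3 experiments. It ran from -0.12 (without vehicle replicate 2) to -0.06 (without 13-HDHEA replicate 2) with an array left out. Hcar2, a receptor for hydroxybutyrate and niacin, read 8.94, 8.79 and 8.86 with vehicle and 8.71, 8.71 and 8.72 with 13-HDHEA. The groups did not overlap, but the difference of -0.15 (-0.41 to 0.11) did not pass. Nr4a3, the other member without overlap, is described with the nuclear receptors.

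Of 23 eicosanoid enzymes and receptors, 10 were higher and 13 lower, with a median of -0.02. The largest differences were in the leukotriene branch. Ltc4s, which makes leukotriene C4, read 5.10, 4.95 and 4.86 with vehicle and 5.50, 5.25 and 5.65 with 13-HDHEA. It was higher without overlap, by 0.49 (0.22 to 0.77), with an adjusted p of 0.953 in limma. Alox5, the lipoxygenase that begins leukotriene synthesis, read 5.53, 5.07 and 5.35 with vehicle and 5.83, 5.49 and 5.92 with 13-HDHEA. It was higher in each experiment, with overlapping groups, by 0.43 (0.01 to 0.86). Lta4h, which makes leukotriene B4, differed by -0.12 and was lower in each experiment without overlap, as was Ptgir (-0.11). In this list 1 gene was thus higher and 2 were lower without overlap, against 3.33% and 4.6% of all genes. Pla2g7, which breaks down platelet-activating factor, differed by 0.30.

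Plin2, the main coat protein of macrophage lipid droplets, gave 1 of the most even differences. It read 10.41, 10.63 and 10.19 with vehicle and 10.75, 10.97 and 10.59 with 13-HDHEA, which is 0.34, 0.34 and 0.40 in the 3 experiments. The groups overlapped because experiment 3 was low and experiment 2 high in both. The difference of 0.36 (0.07 to 0.65) did not pass (adjusted p of 1 in limma), and with experiment as a block the adjusted p was 0.455. Hilpda, an inhibitor of lipid droplet lipolysis, differed by 0.42, and Cpt1a, which admits fatty acids to mitochondria for oxidation, by 0.35 (0.09 to 0.60) without overlap. G0s2, another inhibitor of lipolysis, differed by -0.28. Lipid droplet genes were higher in 6 and lower in 9 of 15 cases, and PPAR targets and fatty acid oxidation genes in 8 and 11 of 19. Plin2 averaged 10.63 with 16-HDHEA, 10.72 with the combined treatment and 10.63 without LPS.

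Of the nuclear receptors in the lists, Nr1d1, the clock repressor Rev-erb alpha, read 5.62, 5.57 and 5.38 with vehicle and 5.06, 4.91 and 5.29 with 13-HDHEA. The groups did not overlap, and the difference of -0.44 (-0.74 to -0.13) did not pass. Nr4a3, an early response receptor, read 4.44, 4.24 and 4.49 with vehicle and 3.96, 4.17 and 4.05 with 13-HDHEA, a difference of -0.33 (-0.58 to -0.08), also without overlap. Of 10 genes in the LXR list, 5 were higher and 5 lower, and Apoe differed by -0.26.

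Metabolic and stress lists differed little. Of 23 NRF2 and glutathione genes, 17 were higher (46.3% of all genes were), with a median of 0.04 (0.01 without vehicle replicate 2 or 13-HDHEA replicate 1, 0.06 without vehicle replicate 1 or after centring), and Mgst2, a microsomal glutathione transferase, differed by 0.32 (0.01 to 0.64). Of 20 glycolysis and hypoxia-linked genes, 17 were higher. Their median of 0.03 had no stable sign, at -0.01 without vehicle replicate 3 and 0.08 without 13-HDHEA replicate 3. Bnip3, a mitophagy receptor, read 6.34, 6.31 and 6.35 with vehicle and 6.56, 6.61 and 6.56 with 13-HDHEA, with no overlap and a difference of 0.24 (-0.14 to 0.62). Respiration and TCA cycle genes ranged only from -0.08 to 0.09 (24 genes), and cholesterol synthesis and uptake genes from -0.09 to 0.09 (20 genes). In the lysosome and autophagy list 18 of 26 genes were lower (median -0.02). Over all 35 lists, 11 kept the sign of their median with each of the 6 arrays left out and under 2 other scalings, and 24 did not. Besides 7 others, the 11 include the interferon-stimulated, cytokine, recombination and unfolded protein lists. Markers of other cell types gave no called gene. All 6 tested neutrophil markers were higher, by 0.03 to 0.28, as were 8 of 10 tested epithelial and endothelial markers, where 46.3% of all genes were. The exceptions were Krt8, a keratin, at -0.02, and Cdh5, an endothelial cadherin, at -0.43 (-0.74 to -0.13). Cdh5 read 5.92, 5.80 and 5.86 with vehicle and 5.36, 5.66 and 5.26 with 13-HDHEA, without overlap, and was above the 70th percentile on all 3 vehicle arrays and 1 of 3 with 13-HDHEA. Pecam1, another endothelial marker, read 4.97 to 5.25 on the 6 arrays. None of the neutrophil, epithelial or endothelial markers was above the 70th percentile on all 6 arrays, while the share of all genes includes brighter ones. The mean 40th percentile was itself higher with 13-HDHEA, at 3.21 against 3.17 with vehicle. Markers set aside by the filter went both ways. Camp and S100a9 (neutrophil) and Tek and Emcn (endothelial) averaged lower with 13-HDHEA, and Elane and Ngp (neutrophil) higher. Camp read 2.93, 3.15 and 3.06 with vehicle and 2.50, 2.72 and 2.88 with 13-HDHEA, below the floor on all 6 arrays. On the arrays with vehicle all markers with a probe set averaged 3.16 to 3.43 (neutrophil) and 3.66 to 3.79 (epithelial and endothelial), and with 13-HDHEA 3.20 to 3.42 and 3.68 to 3.83. Their part in the results was not tested.

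**Figure D5:**
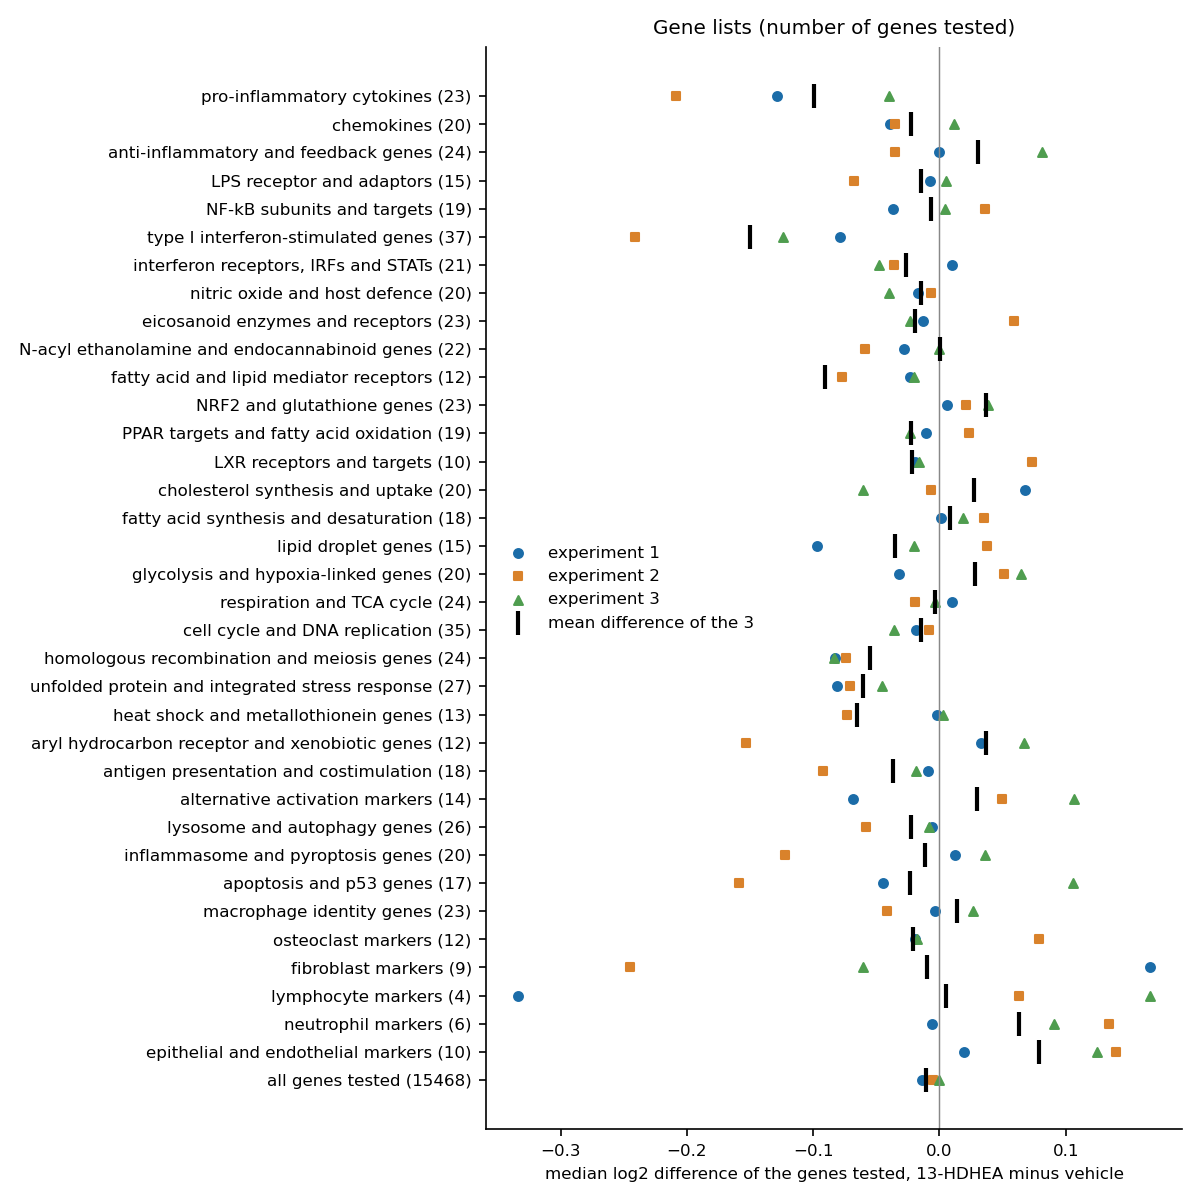
Median log2 difference, 13-HDHEA minus vehicle, of the genes tested in each of 35 lists and of all genes tested, per experiment (symbols) and for the mean difference (bar), with the number of genes in brackets. Interferon-stimulated genes (-0.15) and pro-inflammatory cytokines (-0.10) lie lowest, most lists lie within 0.1 of 0, and the 3 experiments often fall on different sides of it.

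To ask whether 13-HDHEA bore on the LPS response as a whole, genes were grouped by their change with LPS. That change was taken in the 16-HDHEA and combined groups against no LPS, and uses no array of the comparison itself. Cells of the combined group also received 13-HDHEA, and those of the 16-HDHEA group its isomer. A gene whose change with LPS is altered by either lipid could thus be sorted differently than with LPS and vehicle. The bearing of this on the medians was not tested. The 492 genes at least 2-fold higher with LPS had a median difference of -0.04 with 13-HDHEA, and 62.8% of them were lower. Their median was -0.04, -0.07 and -0.03 in the 3 experiments. Without overlap in 1 direction, 23 were lower (4.67%) and 7 higher (1.42%), against 4.6% and 3.33% of all genes tested. The 511 genes at least 2-fold lower with LPS had a median of -0.02, with 57.9% lower, and the 14465 others a median of -0.01, with 53.3% lower. The last 2 medians had no stable sign: that of the genes lower with LPS was 0.03 without 13-HDHEA replicate 1 and -0.07 without vehicle replicate 1, and centring each array on its median turned both to 0 or above.

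The 3 experiments share no array, so their differences can be set beside each other. Across the 15468 genes the differences of experiments 1 and 2 correlated at 0.0616 (Pearson), those of 1 and 3 at 0.0474 and those of 2 and 3 at -0.00217. Spearman values were 0.0737, 0.0567 and -0.0149. Among the 8158 brighter genes the Pearson values were 0.153, 0.0978 and -0.0218. Genes are not independent replicates, and these values are a description. The standard deviation of the differences over genes was 0.241, 0.271 and 0.238, and 44, 70 and 44 genes differed at least 2-fold in experiments 1, 2 and 3. In the mean of the 3, Mnd1 alone did.

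13-HDHEA and 16-HDHEA are positional isomers that differ in the carbon bearing the hydroxyl group, and both were given at 5.0 µM for the same time. Set directly against each other, 1 of 15468 genes passed (0.00646%), Mnd1, 480 had an unadjusted p under 0.05 (3.1%), and 1020 lay apart with the same sign in each experiment (6.59%). Mnd1 read 3.88, 4.10 and 4.10 with 16-HDHEA, each above each array with 13-HDHEA, and 13-HDHEA minus 16-HDHEA was -1.11 (-1.38 to -0.83) with an adjusted p of 0.0102 in limma. That call was lost without replicate 2 or 3 of either isomer and when only these 2 groups were fitted (0 genes called each time). The next genes by p did not pass. Zfp943, a zinc finger gene, was lower with 13-HDHEA by 0.73 on the log2 scale, and the complement regulator gene C4bp by 0.70. The mucosal chemokine gene Ccl28 was higher by 0.71, the integrin ligand gene Npnt by 0.59 and Ildr2 by 0.51. Interferon-stimulated genes were lower with 13-HDHEA than with 16-HDHEA in 31 of 37 cases, where 54.2% of all genes were, with a median of -0.07 and none called. Against the shared vehicle arrays their median was -0.15 with 13-HDHEA, -0.08 with 16-HDHEA and -0.15 with the combined treatment. For the unfolded protein and stress list these medians were -0.06, -0.03 and -0.04. Of the genes always named, the isomers differed by -0.02 in Tnf, -0.18 in Il6 and -0.03 in Il1b, and none passed.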

How the data were processed

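Total RNA of RAW264.7 cells was hybridised to 15 Affymetrix whole-transcript arrays, 3 in each of 5 groups, per the labels' protocols. As deposited, the table holds 1 log2 value per probe set and array, computed with RMA per the submitters' processing notes. RMA corrects background, forces nearly 1 distribution on all arrays and summarises probes, which hides any change common to the bulk of genes and compresses differences of dim probe sets. Its version, chip definition and genome build were not given in the sources used here.

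Of 41345 probe sets, 23521 were listed with 1 gene symbol, 1814 with several, and 16010 were not listed in the platform's gene table. The probe set with the highest mean over all arrays stood for each of 22180 genes (1082 had several). The 15468 genes above the array's 40th percentile on at least 3 arrays were tested, and 6712 were set aside. limma 3.58.1 in R 4.3.3 was fitted to group means over all 15 arrays (lmFit and eBayes, 10 residual degrees of freedom, prior 3.59), two-sided, with Benjamini-Hochberg adjustment over all genes tested and calls at an adjusted p under 0.05. Differences are 13-HDHEA minus vehicle, with 95% intervals from that fit. A fold is a lower bound where the dimmer group lay below the mean 40th percentile of its arrays.

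Named genes are those called, the 10 a direction with the smallest p among genes whose groups do not overlap and go the same way in each experiment (predicted genes and some RNA genes, microRNAs among them, left out by symbol), the 4 with the smallest p in each list (not all are described), and 10 always given: Cnr2, Hmox1, Ccl2, Ptgs2, Nos2, Tnf and the interleukin genes Il6, Il10, Il1b and Il1rn. For 13-HDHEA against 16-HDHEA, 5 a direction were taken by the same rule. Mir339, Rsad2, the brighter genes, and genes named for their pathway role were added after values were seen. The 35 lists hold 763 symbols, of which 699 had a probe set and 636 were tested. Members, lists and rules were chosen with earlier results of these data known, and lists were described without a test.

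Same-numbered arrays share an experiment identifier in the labels. Over the same-numbered pairs, the correlation of deviations from the group means ran from 0.0835 to 0.404, above 0.1 in 28 of 30, and each of 15 arrays correlated best with its own number. With experiment as a block the median standard error was 0.109 in place of 0.126. The fit was also run on simulated data with independent noise on each array. These held no shift shared by an experiment, so they do not check the fit for paired arrays. Promoters and mature miRNAs are RefSeq's, GRCm38.p6. The other settings tried are given in the closing section.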

Additional observations from a re-analysis of the deposited data

Results flagged for a closer look

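The effects of 13-HDHEA and 16-HDHEA on Mnd1, each against the same LPS and vehicle arrays, differed when the difference itself was tested: 13-HDHEA minus 16-HDHEA was -1.11 on the log2 scale, with an adjusted p of 0.0102 in limma over all genes. Each of the 3 arrays with 13-HDHEA lay below each of the 3 with 16-HDHEA. The level with 13-HDHEA is below the mean 40th percentile of its arrays, so the size of the difference was not resolved. The call was lost with all probe sets, with only these 2 groups fitted, and without replicate 2 or 3 of either isomer.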

How the results depend on the processing

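The settings tried were experiment as a block, only the 2 groups compared in the fit (with and without the block), no filter on low values, a 60th percentile filter, repeated quantile normalization, centring each array on its median, eBayes with trend and robust, the mean of all probe sets of a gene, each array left out in turn and, added after the data were seen, all probe sets. With the replicate block, the pairing of experiments left the count of genes called for 13-HDHEA against vehicle at 1, Mnd1. That count was 0 with only the 2 groups compared, with or without the block (Mnd1 adjusted p 0.823 and 0.105 in limma), and 1 to 2 with an array left out, 2 without vehicle replicate 1 (Mnd1 and Mir339). Against 16-HDHEA the count was 0 with only the 2 groups, with or without the block, and with all probe sets, and 0 to 1 with an array left out.

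The median of genes at least 2-fold lower with LPS was -0.00127 with repeated quantile normalization, 0.000962 after centring and -0.0695 to 0.0331 with an array left out. That of genes with neither change was 0.000324 and 0.00907 under these scalings. Differences near 0 changed sign with an array left out, with ranges of -0.0993 to 0.0561 for Cnr2, -0.0487 to 0.124 for Hmox1, -0.0220 to 0.0404 for Il1b, -0.0703 to 0.0338 for Krt8 (0.0032 after centring), -0.0244 to 0.174 for Psmc3ip and -0.00574 to 0.135 for Ptgs2. The median of 22 of 35 lists changed sign with an array left out, and of 10 under another scaling. The cause of these changes was not tested. Levels near the 40th percentile limit the size of Mnd1, Mir339 and most other dim genes.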
